A study of Mus musculus with 12 samples.

Results

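The 40 voltage-gated calcium and sodium channel genes described here were every gene whose symbol names a calcium channel α1, α2δ, β or γ subunit (Cacna, Cacna2d, Cacnb, Cacng) or a sodium channel α or β subunit (Scn). Each was taken by its symbol, whatever its own values, among 52636 genes in each of the deposited expression tables. The family itself was chosen with earlier results of these data known, so its calls are not those of an unselected set. The calcium channel genes numbered 26, with 10 α1, 4 α2δ, 4 β and 8 γ genes, and the sodium channel genes numbered 14, with 10 α and 4 β genes. Of the 40 genes, 31 reached a mean of 1 TPM over the 12 libraries, 21 of the 26 calcium channel genes and 10 of the 14 sodium channel genes.

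Hippocampi of 12 wild-type C57BL6/J mice, all 18 weeks old, had been taken from animals with a low or a high level of fear extinction, the loss of a learned fear response when the cue is met again without harm. The 4 groups were low extinction males, high extinction males, low extinction females and high extinction females, with 3 mice in each. The scoring of extinction and the line between low and high are not given in the sources used here, and every mouse carried the same genotype label. Transcript levels are in TPM, a share of the library's transcripts adjusted for transcript length, which keeps no record of depth. The mean normalised counts in the authors' deposited tables summed to 42574079 per library in males and 43369743 in females, and the depth of single libraries is unknown.

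Voltage-gated calcium channels open when the membrane is depolarised and let in the calcium that drives transmitter release, dendritic signalling and activity-dependent transcription. The α1 subunit forms the pore, and the α2δ and β subunits bring it to the membrane and tune its gating. Most γ subunits of the brain are better known as TARPs, which bind AMPA-type glutamate receptors and alter their trafficking or gating, in ways that differ between members. Voltage-gated sodium channels start and carry the action potential, with the α subunit as the pore and the β subunits as gating partners and adhesion molecules.

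Cacng5, the gene for the TARP γ5, was higher in low extinction females, and it was the 1 channel gene called in a deposited comparison. Cacng5 had 9.54, 9.90 and 10.5 TPM in low extinction females, against 5.84, 6.95 and 5.80 TPM in high extinction females. It had 7.76, 6.99 and 8.68 TPM in low extinction males, against 5.67, 6.84 and 9.75 TPM in high extinction males. The 3 low extinction females all lay above the 3 high extinction females, whereas the male groups overlapped and the highest male value belonged to a high extinction male. Such separation was common, since 14.3% of all genes averaging 1 TPM or more in females had it there, against 1.98% in the opposite direction. In males 4.2% of all genes had low extinction mice all above. In bulk tissue, fewer cells of a type and less RNA per cell cannot be told apart.

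By the authors' deposited table for females, Cacng5 was 1.52-fold higher in mice of low extinction, a log2 change of 0.60 with a standard error of 0.11 and a DESeq2 adjusted p of 3.41e-05 (n = 3 per group). Across all genes there, 0.857% were called at an adjusted p of 0.05, and 0.569% were called in the direction of Cacng5. The authors' deposited table for males gave Cacng5 a log2 change of 0.11 with a standard error of 0.15 and a DESeq2 adjusted p of 0.999. Its 95% interval in males ran from -0.19 to 0.41 on the log2 scale, which is below the female estimate. Set directly against each other, the log2 changes from the authors' deposited tables differed by -0.49, male minus female, with a standard error of 0.19. That difference had an adjusted p of 0.413 over all genes (Wald test with Benjamini-Hochberg adjustment) and was not called, so Cacng5 is not shown to respond differently by sex. The inverse-variance average of both sexes from the authors' deposited tables was 0.44 with a standard error of 0.088 and an adjusted p of 0.000257 by the same Wald test. By that test 1.29% of all genes were called on the average of the sexes and 0.409% on their difference.

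On the TPM themselves the female change was similar in size, but limma did not call it, and a permutation within a sex could not pass 0.05. The log2(TPM + 1) change of Cacng5 was 0.61 in females, with an exact permutation p of 0.1, two-sided, which is the smallest p that 3 against 3 mice allow. In males it was 0.090, and the exact permutation p, two-sided, was 0.7. Over both sexes, permuted within sex, the average change was 0.35 and the exact permutation p, two-sided, was 0.04. That p was not adjusted for the other channel genes. It came from the same mice in which Cacng5 had been called in the deposited comparison, so it is not separate evidence. Leaving out single libraries gave exact permutation p-values of 0.055 to 0.095 in 10 of 12 cases, all but the second low extinction male and the third high extinction male, with average changes of 0.27 to 0.45 over all 12 cases. limma did not call Cacng5, with adjusted p-values over all genes of 0.332 in females and 0.459 on the average of the sexes. For a difference between the sexes of -0.52 on the log2(TPM + 1) scale the adjusted limma p was 0.606. In these 3 comparisons limma called 0.0107%, 0% and 0.00541% of all genes, so it had little room to call any gene.

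**Figure D1:**
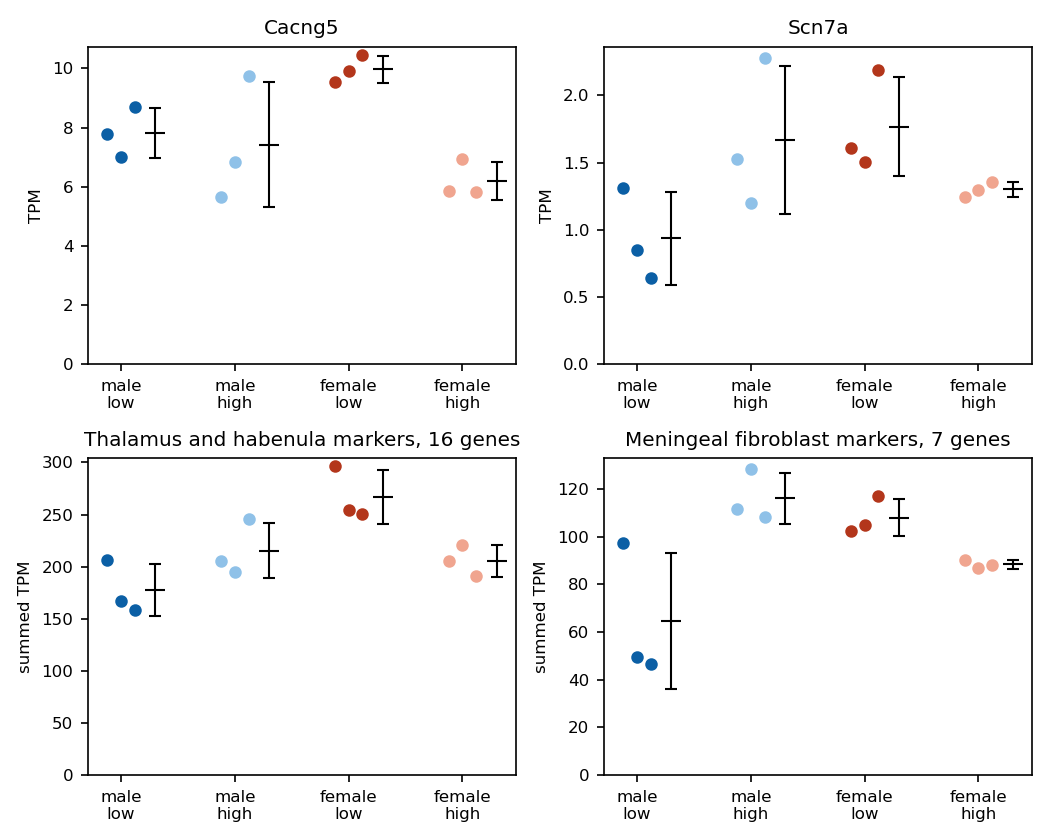
TPM of Cacng5 and Scn7a (top) and summed TPM of 16 thalamus and habenula markers and 7 meningeal fibroblast markers (bottom), with every mouse as a point and the group mean ± SD beside it (n = 3). The low extinction females lie above all high extinction females in the 4 panels, between 9.54 and 10.5 TPM for Cacng5. Across all single genes averaging 1 TPM or more in females, 14.3% separated in this direction.

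Marker sums of thalamus and habenula, and of a hippocampal subfield, CA2, were higher in low extinction females, as was Cacng5. The summed TPM of 16 thalamus and habenula markers was 250.4 to 297.0 in low extinction females, against 190.7 to 220.9 in high extinction females, with no overlap. In males the same sum was 158.8 to 206.2 TPM at low extinction, against 194.9 to 245.7 TPM at high extinction, with overlap. The authors' deposited table for females called 3 of these markers higher in low extinction mice, namely Prkcd at 1.59-fold, Zic1 at 2.13-fold and Zic4 at 1.84-fold. It gave positive changes to 14 of 15 of them, where 44.8% of all genes were positive. Adarb1, at 56.7 TPM the highest of the 16 on average, had a log2 change of only 0.0090 there. The 8 markers of CA2, the hippocampal subfield where Cacng5 is known to be enriched, summed to 455.7 to 503.6 TPM in low extinction females, against 421.6 to 438.6 TPM in high extinction females. In males the CA2 sum was 398.8 to 443.1 TPM at low extinction, against 378.7 to 477.3 TPM at high extinction. The female CA2 rise depended on the scale. On log2(TPM + 1) 7 of 8 CA2 markers were positive in females, where 69.1% of all genes were. In the authors' deposited table for females 4 of 8 were positive, with a median log2 change of 0.016. No CA2 marker was called in either sex in the authors' deposited tables, and no marker in the thalamus or CA2 list was at 0 in any library. Ribosomal RNA genes took 11.8%, 11.3% and 7.31% of the TPM in low extinction females, against 10.7%, 13.6% and 13.1% in high extinction females. Of all single genes at 1 TPM, 14.3% had low extinction females all above. Sums of meningeal fibroblast markers and of smooth muscle and pericyte markers, given below, were also higher in low extinction females without overlap. In the authors' deposited table for females 7 of 7 and 5 of 6 of these were positive. The part of all these markers in the Cacng5 result was not tested.

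Cacng5 lies on chr11:107874605-107915055 on the minus strand of GRCm38, with no other annotated gene overlapping it. It is the last of a run of γ genes there, after Cacng1 and Cacng4, and the closest paralogue of γ5, the γ7 gene Cacng7, lies in a second run on chromosome 7 with Cacng8 and Cacng6. The 250 bases upstream of the RefSeq start of Cacng5 (GRCm38.p6, chr11:107915056-107915305, minus strand) are shown with those of Cacng7 (chr7:3332575-3332824, plus strand) and of Scn7a (chr2:66784911-66785160, minus strand). They are given because Cacng5 was the gene called, Cacng7 is its paralogue of far higher level, and Scn7a had the largest male change among the channel genes with an adjusted p. The sequences read 5′ to 3′ on the gene's own strand, and capitals mark CG dinucleotides, the main sites at which mammalian DNA is methylated.
Cacng5: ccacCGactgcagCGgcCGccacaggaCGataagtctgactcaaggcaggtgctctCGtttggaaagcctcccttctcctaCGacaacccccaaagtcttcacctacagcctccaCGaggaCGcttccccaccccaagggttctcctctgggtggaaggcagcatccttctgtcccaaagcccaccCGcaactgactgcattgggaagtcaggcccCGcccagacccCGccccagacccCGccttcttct
Cacng7: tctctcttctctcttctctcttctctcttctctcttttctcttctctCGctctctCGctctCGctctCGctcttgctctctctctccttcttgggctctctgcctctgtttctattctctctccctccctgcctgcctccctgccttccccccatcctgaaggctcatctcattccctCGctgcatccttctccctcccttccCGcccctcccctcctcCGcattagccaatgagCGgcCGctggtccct
Scn7a: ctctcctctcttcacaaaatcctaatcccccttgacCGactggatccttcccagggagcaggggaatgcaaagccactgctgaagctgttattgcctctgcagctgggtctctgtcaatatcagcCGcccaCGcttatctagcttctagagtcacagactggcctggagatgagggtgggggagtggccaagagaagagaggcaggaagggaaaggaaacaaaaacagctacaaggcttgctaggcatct

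The sequences shown held 12 CG dinucleotides in Cacng5, 9 in Cacng7 and 3 in Scn7a, against a median of 6 over 32851 promoter windows of the RefSeq table. All 3 held the GC box GGGCGG on either strand. RefSeq gives Cacng5 2 starts, and the window of the other (chr11:107911363-107911612, minus strand, not shown) held 2 CG dinucleotides and no GC box. Windows were found for 30 of the 40 channel genes, 41 windows in all. The GC box was in 15 of these 41 windows, or 36.6%, where it was in 32.7% of all windows of that length. The TATA box TATAAA was in 2 of the 41, or 4.88%, against 12.4% of all windows, and 0 held the cAMP response element TGACGTCA or the E-box CACGTG, found in 1.55% and 6.02% of all windows. Cacna1a, Cacna1g, Cacna1h, Cacna2d4, Cacng1, Cacng4, Scn3a and Scn3b were among those with no entry.

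No other γ gene was called in either sex. Cacng8 and Cacng7, the γ8 and γ7 TARPs, led the class at means of 179.3 and 128.6 TPM, and Cacng8 was the higher in 12 of 12 libraries. Cacng5 made up 1.94% of the γ subunit TPM. Cacng8, an AMPA receptor partner abundant in hippocampus, had 178.2, 191.0 and 199.2 TPM in low extinction males, against 177.7, 159.1 and 204.5 TPM in high extinction males. Female values were 184.1, 126.8 and 194.1 TPM at low extinction, against 162.9, 182.0 and 191.7 TPM at high extinction. Both pairs of groups overlapped, and the lowest library was a low extinction female. Below Cacng7 came Cacng3 at 37.0, Cacng2 (stargazin) at 36.1 and Cacng4 at 16.4 TPM, all averages over 12 libraries. The ranges of Cacng3 and Cacng2 overlapped, while Cacng4 lay below Cacng2 and above Cacng5 in 12 of 12 libraries. Cacng6 and Cacng1, known from skeletal muscle, averaged 0.934 and 0.0352 TPM.

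Among the pore-forming α1 genes, Cacna1a, the P/Q-type channel of transmitter release, was highest with a mean of 132.0 TPM and 29.2% of the class. It had 121.4, 113.2 and 142.0 TPM in low extinction males, against 131.9, 144.0 and 123.7 TPM in high extinction males. Its female values were 141.5, 109.5 and 160.2 TPM at low extinction, against 133.6, 132.9 and 129.9 TPM at high extinction. The groups overlapped in both sexes, and the low extinction females spread on both sides of the high extinction females. The R-type gene Cacna1e averaged 85.0 TPM, below Cacna1a in 12 of 12 libraries, and the T-type gene Cacna1h 65.0 TPM. Cacna1b, the N-type channel, at 41.1, the L-type gene Cacna1c at 39.6, the T-type gene Cacna1g at 32.2, the L-type gene Cacna1d at 29.9 and the T-type gene Cacna1i at 29.0 TPM followed. Each of these last 5 overlapped its neighbours in level. Cacna1s, the skeletal muscle channel, at 0.184 TPM and Cacna1f, the retinal channel, at 0.0921 TPM stayed below 1 TPM.

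The α2δ gene Cacna2d1, a binding site of gabapentin, averaged 83.8 TPM, Cacna2d3 averaged 50.8 TPM and Cacna2d2 averaged 14.2 TPM. Cacna2d1 had 104.8, 49.6 and 102.8 TPM in low extinction males, against 107.0, 38.0 and 80.1 TPM in high extinction males. Female libraries had 112.8, 57.8 and 99.0 TPM at low extinction, against 108.9, 75.1 and 69.8 TPM at high extinction. The spread within each of these groups was wider than the differences between groups, with a coefficient of variation of 30.7% over 12 libraries against a median of 12.2% over the 31 channel genes at 1 TPM. Cacna2d3 varied by 5.17%. Cacna2d4 averaged 0.887 TPM.

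Of the β genes, which bind the α1 subunit from inside the cell, Cacnb3 averaged 120.3 TPM, Cacnb1 87.7, Cacnb4 61.9 and Cacnb2 45.6 TPM, and the ranges of Cacnb4 and Cacnb2 were the only neighbours to overlap. Cacnb3 had 116.1, 125.8 and 127.9 TPM in low extinction males, against 111.8, 116.1 and 137.3 TPM in high extinction males. In females it had 115.9, 98.5 and 120.4 TPM at low extinction, against 130.8, 118.2 and 125.0 TPM at high extinction. The female groups overlapped through 1 low extinction mouse. The authors' deposited table for females gave Cacnb3 a log2 change of -0.23 with a standard error of 0.070 and a DESeq2 adjusted p of 0.0845, which did not pass 0.05. At an adjusted p of 0.1, where 1.28% of all genes were called, Cacnb3 joined Cacng5 in females, and 0 channel genes were called in males, where 0.863% of all genes were.

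**Figure D2:**
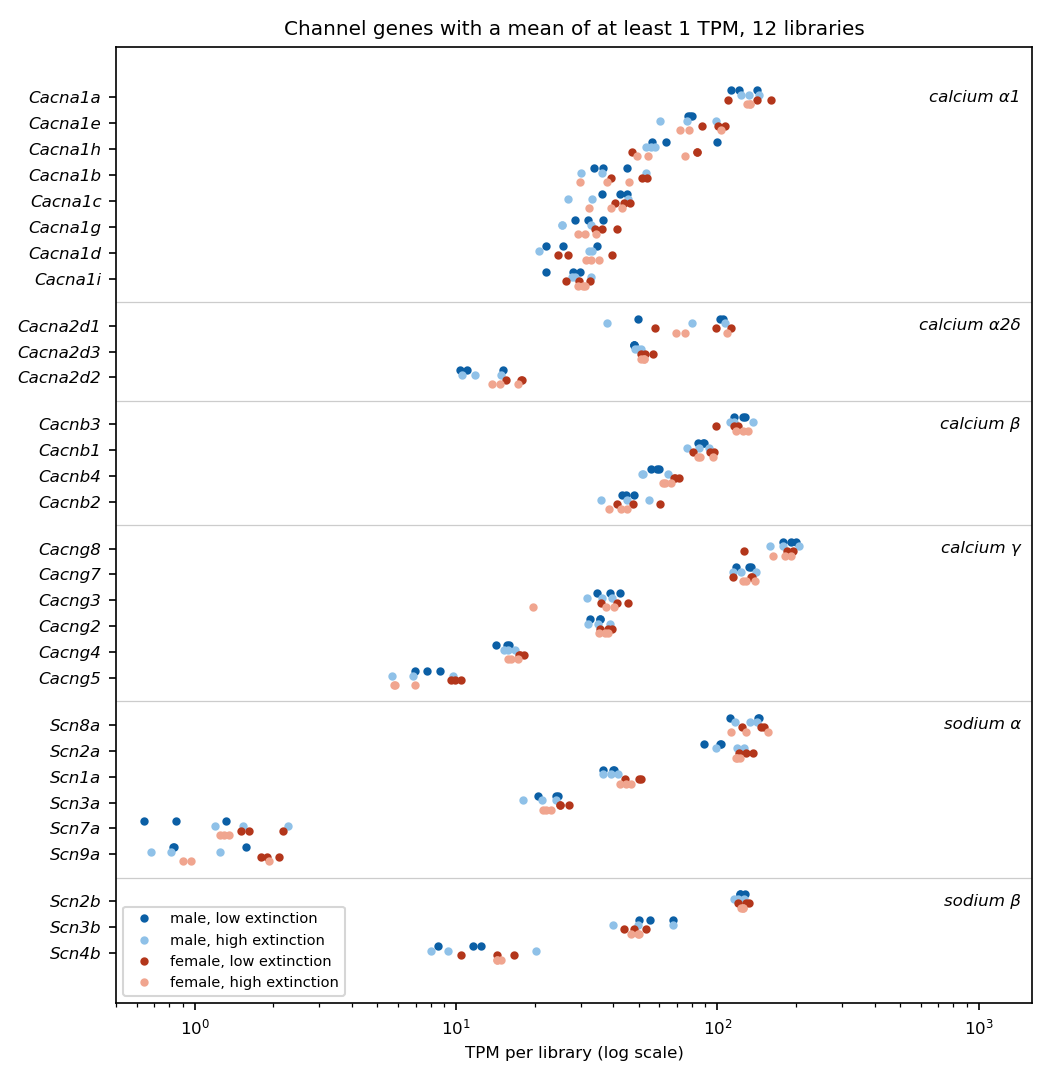
TPM per library on a log scale for 30 channel genes averaging 1 TPM or more, grouped by class, with 1 point per mouse coloured by sex and extinction level. Cacng8 is highest of those drawn at a mean of 179.3 TPM, and most genes show overlapping groups.

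The sodium channel α genes of central neurons were led by Scn8a at 134.2 TPM and Scn2a at 115.5 TPM, both pores of the axon initial segment, whose ranges overlapped and of which Scn8a was the higher in 10 of 12 libraries. Scn8a had 112.3, 144.3 and 142.9 TPM in low extinction males, against 132.8, 116.6 and 141.3 TPM in high extinction males. Female libraries had 147.3, 124.3 and 151.2 TPM at low extinction, against 128.2, 156.0 and 113.0 TPM at high extinction. Neither sex separated by extinction level. Scn1a, important in fast-spiking interneurons, averaged 42.8 TPM and Scn3a, best known from the developing brain, averaged 23.1 TPM, and each lay above the next in 12 of 12 libraries. Scn9a, of peripheral sensory neurons, was just above 1 TPM at 1.29. Scn11a and Scn10a, known from sensory neurons, averaged 0.0113 and 0.00364 TPM, and Scn4a, the skeletal muscle gene, averaged 0.0100 TPM. Of the 40 channel genes, 20 lay in 7 runs of neighbours less than 1000000 bases apart, and the longest run held Scn3a, Scn2a, Scn1a, Scn9a and Scn7a on chromosome 2. The 5 genes of that run spanned mean levels of 1.29 TPM for Scn9a to 115.5 TPM for Scn2a.

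Scn7a encodes Nax, an atypical α subunit known as a sensor of sodium level in glia and in the brain's salt-sensing regions. It is described because its change was the largest among the channel genes with an adjusted p in males, a choice made after its values were seen. Scn7a had 1.31, 0.851 and 0.639 TPM in low extinction males, against 1.53, 1.20 and 2.28 TPM in high extinction males. In females it had 1.61, 1.50 and 2.19 TPM at low extinction, against 1.25, 1.30 and 1.36 TPM at high extinction. The male groups overlapped. The low extinction females lay above all high extinction females, as they did for 14.3% of all genes. The authors' deposited table for males gave Scn7a a log2 change of -0.79 with a standard error of 0.25 and a DESeq2 adjusted p of 0.152. The authors' deposited table for females gave it a log2 change of 0.31 with a standard error of 0.16 and a DESeq2 adjusted p of 0.524. The difference between these changes in the authors' deposited tables was -1.10, male minus female, with a standard error of 0.30 and a Wald test adjusted p of 0.0555, which missed the threshold. limma gave the same contrast as -0.72 on the log2(TPM + 1) scale with an adjusted p of 0.563. Markers of meningeal fibroblasts moved with it, with 7 genes summing to 46.4 to 97.4 TPM in low extinction males, against 108.1 to 128.3 TPM in high extinction males. In females their sum was 102.2 to 116.8 TPM at low extinction, against 86.7 to 90.2 TPM at high extinction, and none of the 7 was at 0 in any library. Other lists moved likewise. The sum of 7 smooth muscle and pericyte markers was 80.5 to 87.5 TPM in low extinction males, against 88.1 to 104.3 TPM in high extinction males. In females that sum was 112.6 to 135.4 TPM at low extinction, against 83.3 to 97.9 TPM at high extinction. The thalamus and habenula sum given above was also mostly lower in low extinction males, with overlap, and higher in low extinction females. The part of all these markers in the Scn7a values was not tested.

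Among the β subunits of sodium channels, Scn2b, which is joined to the α subunit by a disulfide bond, averaged 124.1 TPM. Scn2b had 121.8, 127.3 and 122.2 TPM in low extinction males, against 115.5, 120.2 and 127.0 TPM in high extinction males. Its female values were 128.6, 119.6 and 132.7 TPM at low extinction, against 125.8, 123.1 and 125.3 TPM at high extinction. Groups overlapped in both sexes, and Scn2b varied least of the 31 genes at 1 TPM, by 3.73% over the 12 libraries. Scn3b and Scn4b averaged 51.8 and 12.9 TPM, with Scn2b above Scn3b and Scn3b above Scn4b in 12 of 12 libraries.

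Calls across the set were counted against those across all genes. Of 35 channel genes with an adjusted p in the authors' deposited table for males, 0 were called, where 0.504% of all genes were called, and 5 of the 35 had an unadjusted p under 0.05, where 7.61% of all genes did. These were Cacna1a, Cacna1g, Cacna1h and Scn3b with positive changes and Scn7a with a negative one, although for Cacna1a the log2(TPM + 1) change in males was -0.089, of the opposite sign. Of 33 in the authors' deposited table for females, 1 was called, where 0.857% of all genes were, and 7 had an unadjusted p under 0.05, where 9.95% of all genes did. Among those, Cacng5 and Cacna2d2 had positive changes, and Cacna1i, Cacnb1 and Cacnb3 had negative ones, although for Cacnb1 the log2(TPM + 1) change in females was 0.025, of the opposite sign. In males 26 of 35 channel genes had positive changes in the authors' deposited table, or 74.3%, with a median log2 change of 0.044, where 48.4% of all genes were positive with a median of -0.0051. In females 17 of 33 had positive changes in the authors' deposited table, or 51.5%, with a median of 0.014, where 44.8% of all genes were positive with a median of -0.014. The split depended on the scale, since on log2(TPM + 1) 17 of 30 channel genes were positive in males, or 56.7%, where 43.1% of all genes were. On that scale 24 of 33 were positive in females, or 72.7%, where 69.1% of all genes were, so the sex with the larger share was males in the deposited tables and females in the TPM.

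By class, for 5 of the 6 classes, positive changes in the authors' deposited table for males were found for 8 of 9 α1 genes, 1 of 4 α2δ genes, 4 of 4 β genes, 6 of 7 γ genes and 4 of 7 sodium α genes. In the authors' deposited table for females the counts were 5 of 8 α1 genes, 2 of 4 α2δ genes, 2 of 4 β genes, 2 of 6 γ genes and 6 of 7 sodium α genes. On log2(TPM + 1) the male counts were 4 of 8 α1, 1 of 3 α2δ, 4 of 4 β, 4 of 6 γ and 2 of 5 sodium α genes, so the high α1 share was found in the deposited table and not in the TPM. The female counts on that scale were 6 of 8 α1, 4 of 4 α2δ, 3 of 4 β, 4 of 7 γ and 6 of 6 sodium α genes. Of the 33 genes with an adjusted p in both tables, 16 had the same sign in males and females. The sums of TPM over each class overlapped between low and high extinction in every class and both sexes, for example the α1 sum at 434.4 to 540.4 TPM in low extinction females, against 419.0 to 480.8 TPM in high extinction females.

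**Figure D3:**
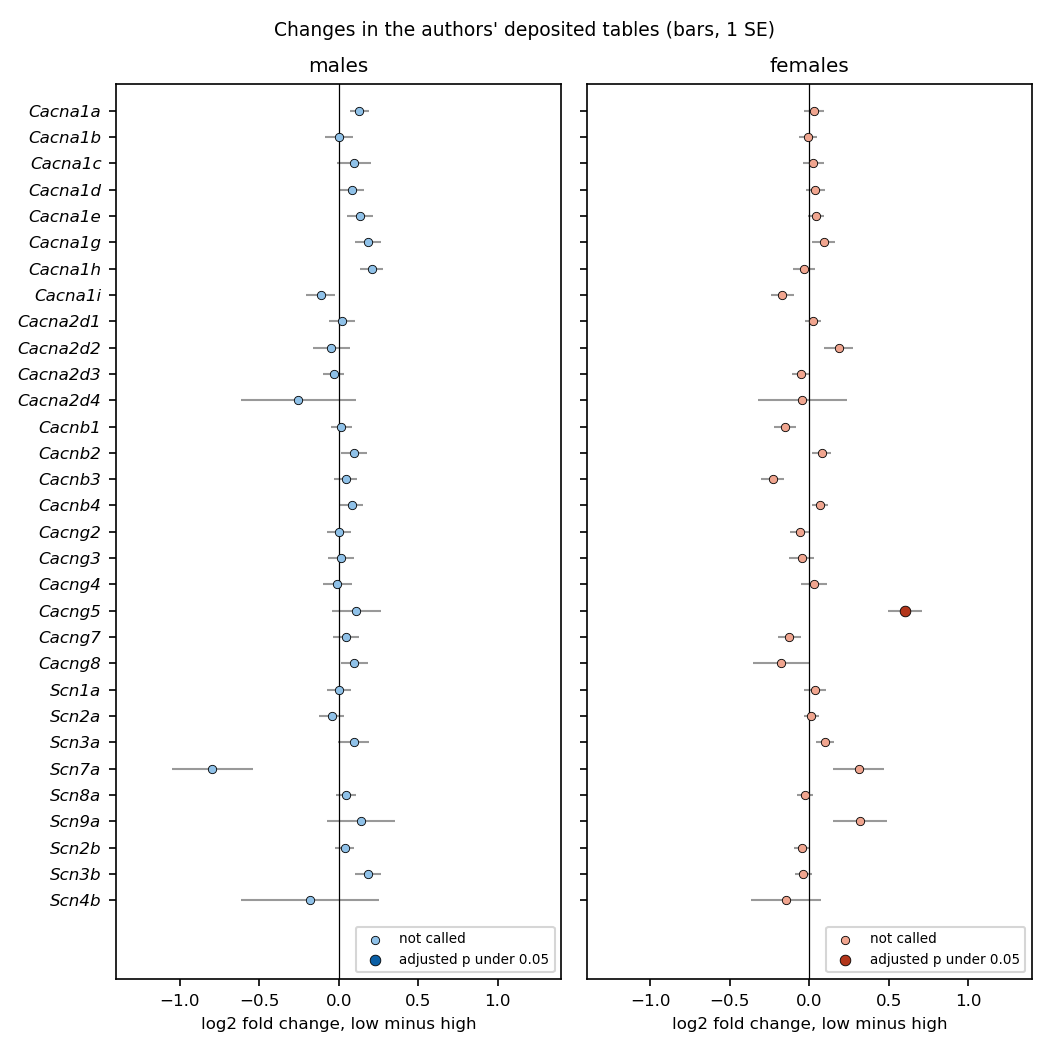
The log2 change in the authors' deposited tables, low minus high extinction, with bars of 1 SE for 31 channel genes with an adjusted p in both tables, males left and females right, dark where called at an adjusted p of 0.05. Cacng5 in females, at 0.60, is the 1 gene called, and Scn7a in males, at -0.79, lies farthest from 0.

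limma on log2(TPM + 1) called 0 channel genes in males, females, the average of the sexes or their difference. It tested 30, 33, 31 and 31 channel genes in these comparisons, and called 0%, 0.0107%, 0% and 0.00541% of all genes. At an unadjusted limma p under 0.05 there were 0 channel genes in males, where 6.29% of all genes passed, and 3 in females, where 8.83% passed. On the average of the sexes 2 passed, where 7.7% of all genes did, and 3 on the difference, where 7.92% did. In females 5 of 33 channel genes, Cacnb4, Cacng4, Cacng5, Scn3a and Scn7a, had all low extinction mice above all high extinction mice, where 14.3% of all genes did, and 0 had them below, where 1.98% of all genes did. In males 0 of 30 had low extinction mice all above, where 4.2% of all genes did, and 1, Cacna2d3, had them all below, where 7.28% did.

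The other separated genes had smaller log2(TPM + 1) changes than Cacng5 and Scn7a had in females. Scn3a had 24.9, 27.0 and 24.9 TPM in low extinction females, against 21.6, 23.2 and 22.2 TPM in high extinction females, and in the authors' deposited table for females its DESeq2 adjusted p was 0.595. Cacnb4 had 68.2, 69.1 and 71.4 TPM in low extinction females, against 66.7, 63.0 and 62.1 TPM in high extinction females. Cacng4 had 17.4, 18.2 and 17.5 TPM in low extinction females, against 17.3, 15.9 and 16.3 TPM in high extinction females. The groups of Cacng4 and Cacnb4 were close to touching. Cacna2d3 had 48.2, 47.9 and 47.9 TPM in low extinction males, against 48.3, 49.8 and 51.2 TPM in high extinction males, a narrow gap again. Cacna1h, with the smallest unadjusted p after Scn7a among the channel genes in males, had 56.2, 63.9 and 99.4 TPM in low extinction males, against 55.5, 53.5 and 57.5 TPM in high extinction males. The groups of Cacna1h overlapped and 1 low extinction male lay far above the rest. The authors' deposited table for males gave Cacna1h a log2 change of 0.21 with a standard error of 0.072 and a DESeq2 adjusted p of 0.247. No channel gene separated in the same direction in both sexes, where 0.854% of all genes were higher and 0.189% lower, and none in opposite directions, where 1.15% of all genes did.

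The authors' count-based changes and the TPM changes mostly shared a sign, in 24 of 30 channel genes in males and 22 of 32 in females, with a median gap of 0.031 and 0.091 on the log2 scale. In females Cacng3 and Cacna1b stood apart, with TPM changes of 0.38 and 0.35 against -0.049 and -0.0098 in the authors' deposited table. Cacng3 had 41.4, 35.8 and 45.4 TPM in low extinction females, against 19.8, 40.4 and 37.6 TPM in high extinction females. The 19.8 TPM of 1 high extinction female lay below all other libraries, which ran from 31.6 to 45.4 TPM.

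**Figure D4:**
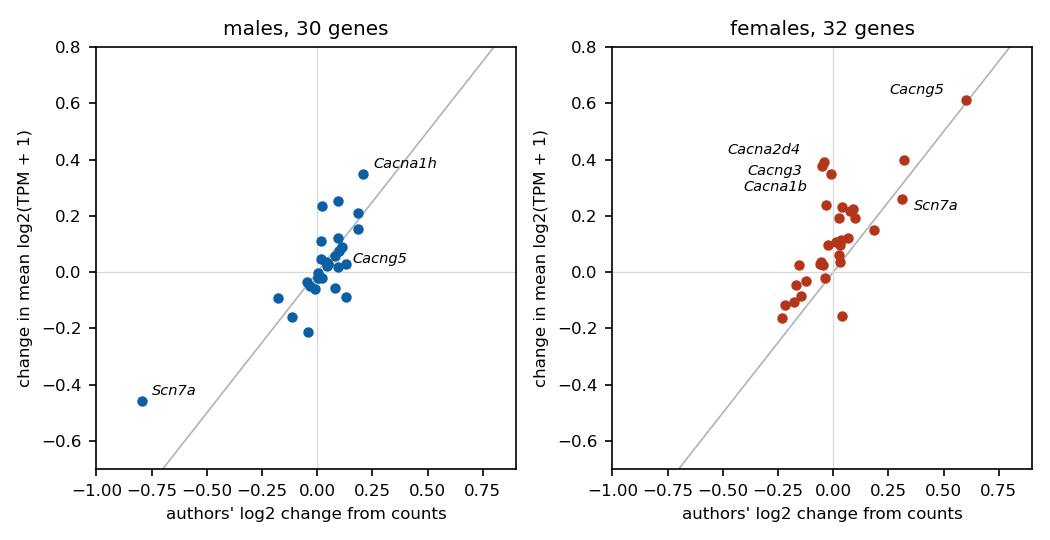
The change in mean log2(TPM + 1), low minus high extinction, against the authors' log2 change for channel genes averaging 1 TPM or more in that sex, males left and females right, with the line of equal change. Cacng5 in females lies near the line, while Cacng3, Cacna1b and Cacna2d4 lie above it.

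Genes that work beside these channels gave 1 call in all. Across all genes 0.504% were called in males and 0.857% in females, so lists of this size would give few calls in any case. Of the proteins that bind calcium channels, 0 of 18 genes in males and 0 of 16 in females were called in the authors' deposited tables, with median log2 changes of -0.028 and -0.038. Sodium channel partners such as ankyrins gave 0 of 17 in both sexes, and AMPA receptor partners 0 of 12 in both. Of 16 calcium signalling targets, 0 were called in males and 1 in females, Camk2d, a calcium and calmodulin-dependent kinase subunit. The authors' deposited table for females gave Camk2d a 1.26-fold higher level at low extinction, a log2 change of 0.33, with a DESeq2 adjusted p of 0.00762. On log2(TPM + 1) the Camk2d change in females was 0.71, so its size depended on the scale. Camk2d had 51.5, 26.7 and 24.1 TPM in low extinction females, against 19.8, 19.5 and 18.4 TPM in high extinction females, and 1 low extinction female lay far above the others.

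The 8 CA1 and CA3 markers summed to 325.2 to 445.0 TPM and the 7 dentate granule markers to 151.0 to 209.5 TPM over the 12 libraries, and all of them averaged at least 1 TPM. The 16 thalamus and habenula markers, 7 meningeal fibroblast markers and 6 choroid plexus markers did so too, so the hippocampal markers were present beside those of neighbouring tissue. The pan-neuronal sum was 3895 to 5048 TPM over the 12 libraries, and 0 of its 8 genes were called in either sex. The shares of all genes called were 0.504% in males and 0.857% in females. Of the remaining marker lists, the authors' deposited table for males called Col3a1 of meningeal fibroblasts lower at low extinction. Apart from the thalamic genes, the authors' deposited table for females called Col3a1, Col1a2, Slc6a13 and Igf2 of meningeal fibroblasts and Myh11 and Acta2 of smooth muscle higher, and Sst of interneurons and Sox10 of oligodendrocyte precursors lower. For Igf2 the log2(TPM + 1) change was -0.082, of the opposite sign. No gene was called in the oligodendrocyte, astrocyte, microglia and choroid plexus lists, although the choroid plexus sum ranged from 22.1 to 3447 TPM between libraries. Correlations of log2(TPM + 1) between libraries were 0.973 to 0.983, and ribosomal RNA genes took 7.31% to 21.8% of the TPM.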

How the data were processed

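Libraries from 12 mice were made per the labels' protocols with the Kapa mRNA Hyper Prep kit, after polyA enrichment of 1 µg of RNA each. DESeq2, HTSeq, StringTie 1.3.3b, Bowtie2 and TopHat2, and the builds mm10 and GRCm38.p5, are named by the submitters' processing notes, without assigning tools to files. Strand use in counting was not given in the sources used here, and 22 of the 40 channel genes overlap an annotated gene on the other strand, so reads of such pairs may not be told apart. On the same strand 9 overlap an annotated gene, where strand use could not separate the reads.

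The authors deposited TPM for each sex in a separate table. Per the file headers, the authors' DESeq2 tables hold the mean normalized count as a signal, the log2 fold change with its standard error, the Wald statistic as a score, and the p-value and adjusted p-value. Their direction is not named. The deposited log2 changes correlated at -0.58 in males and -0.46 in females with the low minus high TPM change across genes, and 101 of 101 and 133 of 134 called genes had the opposite sign, so they were multiplied by -1. Genes whose deposited adjusted p was missing stayed out of the counts.

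From the TPM, log2(TPM + 1) was tested with limma 3.58.1 in R 4.3.3 (mean-variance trend, mean of at least 1 TPM, Benjamini-Hochberg over all genes, threshold 0.05), within each sex and over 12 libraries with 4 group means. Fold changes on this scale understate those of low genes. limma was also run on simulated data with known changes. The outcome is not given here, so the size of change it could call with 3 mice per group is not stated. Permutation tests enumerated 20 label assignments within a sex and 400 over both. The deposited log2 changes of both sexes were averaged with inverse-variance weights and subtracted over 15642 genes. Nothing says how the 3 mice of a group relate, so p-values measure the spread between these mice. Sexes were processed in separate tables, so sex and table cannot be told apart and only within-sex changes were compared. All 40 genes were found in GENCODE M21 by identifier.

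The family of genes described, and so its members, the 4 pathway lists and the 13 marker lists were chosen with earlier results of these data known. Values per library were given for Cacng5, for members called, for members separated in the same direction in both sexes and for the highest member of each class, with Scn2b for the sodium β class. Single values of some members are not reported here, and these members were left out of the plots that name each gene. Scn7a, Cacng3 and Cacna1b, and other members given single values, were picked after their values were seen.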

Additional observations from a re-analysis of the deposited data

How the results depend on the processing

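No paired analysis was possible because the labels number no replicates, and the numbers used here only follow record order. Over 15 results and 224 alternative values (another pseudocount, filter, scaling or test, and single libraries left out), 211 kept their direction and their side of the threshold. Part of this was fixed beforehand, since the permutation tests within a sex could not pass 0.05. limma called 0% to 0.0107% of all genes in its main settings, so its counts of 0 had little room to move. The Cacng5 average over the sexes lost its exact permutation p under 0.05 in 10 of the 12 analyses without 1 library, with values of 0.27 to 0.45; fewer mice allow fewer label assignments there. In males its change was -0.064 without the first high extinction male, a change of sign in a value that was never called, and 0.28 at the highest. Ribosomal RNA genes took 21.8% of the TPM of that library, the highest share of the 12, and its Cacng5 value, 5.67 TPM, was the lowest. With ribosomal RNA genes taken out of all libraries, the male change of Cacng5 was 0.080. The count of channel genes called by the authors was 2 at an adjusted p of 0.1 and 0 for the difference between the sexes. limma called 0 channel genes under every alternative run. With 3 mice per group, an exact permutation p within a sex cannot go below 0.1, and TPM give no depth for single libraries.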
